A study of Mus musculus with 16 samples.

Results

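The integrated stress response and its secreted product Gdf15 were followed in mouse liver through 10 genes, chosen by name and found by Ensembl identifier among the 13006 genes of the deposited table. They were the hormones Gdf15 and Fgf21, the transcription factors Atf4, Atf3 and Ddit3 (which encodes CHOP), and 5 further genes downstream of ATF4 or CHOP, namely Asns, Chac1, Trib3, Nupr1 and Sesn2. All 10 passed the filter on low counts that left 12918 genes for testing.

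The integrated stress response begins when a kinase phosphorylates the translation initiation factor eIF2α, in answer to misfolded protein in the endoplasmic reticulum, missing amino acids, viral RNA or a lack of heme. Bulk protein synthesis then slows while ATF4 protein is made more efficiently from mRNA already present, so that the Atf4 mRNA level does not report the ATF4 protein level. ATF4 acts with partners of the C/EBP family on genes for amino acid supply, redox balance and secreted signals. In liver the best known of these signals are GDF15, which acts on the hindbrain receptor GFRAL and lowers food intake, and FGF21, which acts through FGF receptors with the co-receptor β-Klotho.

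The mice of every group carried the genotype labelled Humanized PXR-CAR-CYP3A4/3A7, in which human genes stand in for the mouse xenobiotic receptors PXR and CAR and for CYP3A enzymes. There were 4 groups of 4 liver libraries made from polyadenylated RNA. EM mice received both ethinylestradiol (EE), a synthetic estrogen that brings on cholestasis, by subcutaneous injection at 10 mg/kg in propylene glycol for 7 days, and the CAR ligand MI763F (a code name) by gavage at 2.5 mg/kg for 6 days from day 2. EV mice received EE alone, CM mice MI763F alone, and CV mice the propylene glycol vehicle. Nothing in the labels says that EV and CV mice were given the oral formulation of DMSO, PEG300 and corn oil in which MI763F was dosed, so ligand and gavage cannot be told apart. A further MI763F dose was not analysed here. The labels do not tie each library to an animal of its own, so every p-value measures the spread between these samples, which may be technical. The comparisons address the effect of EE, the effect of the ligand in mice with and without EE, and the difference between these ligand effects. The EM, EV and CM groups are each set against the same CV libraries, and the comparisons therefore share libraries.

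Library totals ran to 14115384 estimated counts at the lowest and 21473227 at the highest. Library composition differed with EE, the TMM scaling factors being 1.1 to 1.23 with EE and 0.833 to 0.91 without it, and replacing them by library totals shifts the median of all genes by 0.48 on the log2 scale in EV vs CV. Cyp2b10, the classical CAR target, rose with the ligand in both settings, by 1.66 ± 0.26 (SE) on the log2 scale with EE and by 1.8 ± 0.26 without it. It averaged 284 ± 32 CPM (the count relative to the TMM-scaled library total) in EM and 90.1 ± 27.5 in EV, and 1050 ± 435 CPM in CM and 301 ± 45.6 in CV (SD, n = 4 per group). All 6 hepatocyte markers were listed, with Alb among them, and 6 of 6 fell in EV vs CV, and their summed level lay between 28400 and 36200 CPM in EV and between 80400 and 106000 CPM in CV. Of 11 macrophage and Kupffer cell markers, 9 rose in EV vs CV, with sums of 1440 to 1660 CPM in EV and 244 to 657 CPM in CV. Rises were also called in EV vs CV for 5 of 5 erythroid, 6 of 8 sinusoidal endothelial and 4 of 6 lymphoid and neutrophil markers. So were 3 of 8 stellate, 2 of 4 cholangiocyte and 1 of 2 pancreatic acinar markers, and 1 stellate marker fell. Of all genes, 25.5% were called up and 24.9% down. The stellate sums (184 to 205 CPM in EV, 173 to 315 in CV) and acinar sums (15.5 to 29.8 and 17.2 to 29.8) overlapped. The erythroid, endothelial, lymphoid and cholangiocyte sums lay wholly higher in EV. In whole liver, fewer cells of a type and less RNA per cell cannot be told apart, and the part of cell makeup in the values below was not tested.

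ATF4 and its C/EBP partners bind a composite element with the core TGATGNAA. It was searched on both strands of the RefSeq promoter windows of mouse build GRCm38.p6, 250 bases before to 50 bases after each start, an earlier build than the GRCm39 named in the submitters' processing notes. All 10 genes were found there, in 11 windows, and 6 of the 10 (60%) held the core, against 1219 of 27025 genes (4.51%) in the same table. The 10 were chosen by name as genes of the ATF4 pathway, so these shares are a description and no test of enrichment. The 6 matches are shown because they mark which of these genes hold the letters of the core near their RefSeq start. Binding at these matches was not tested. Each is written 5′ to 3′ along the strand that reads TGATGNAA, with the core in capitals.
Fgf21 (chr7:45615614-45615637): tggacggaTGATGCAAtggggggg
Atf3 (chr1:191183428-191183451): ggacttggTGATGCAAgtgcgaga
Asns (chr6:7693217-7693240): cagccacaTGATGAAActtcccgc
Chac1 (chr2:119351041-119351064): ggcaggagTGATGCAAcggcaggg
Trib3 (chr2:152344031-152344054): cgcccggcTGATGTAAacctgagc
Nupr1 (chr7:126625565-126625588): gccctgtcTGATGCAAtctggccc
The core lay 110 to 103 bases before the start in both Atf3 and Nupr1, 139 to 132 bases before it in Fgf21 and 193 to 186 bases before it in Chac1. In Trib3 it lay at positions 15 to 22 after the start. Asns was the one gene with the core on its own strand, 23 to 16 bases before the start, and its core ends in AAA. These positions count from RefSeq starts. For Atf3, Nupr1, Chac1, Trib3 and Asns that start matches no transcript start of the GENCODE M21 annotation used for symbols. The windows of Gdf15 (at either of its 2 annotated starts), Atf4, Ddit3 and Sesn2 held no match, which says only that these letters are not in these windows. The 250 bases before the start are shown whole for Gdf15, Asns and Chac1. Gdf15 was the highest of the 10 mRNAs in EM, EV and CM and held no match. Asns and Chac1 are 2 of the 6 genes with a match.
Gdf15 (chr8:70632457-70632706, minus strand): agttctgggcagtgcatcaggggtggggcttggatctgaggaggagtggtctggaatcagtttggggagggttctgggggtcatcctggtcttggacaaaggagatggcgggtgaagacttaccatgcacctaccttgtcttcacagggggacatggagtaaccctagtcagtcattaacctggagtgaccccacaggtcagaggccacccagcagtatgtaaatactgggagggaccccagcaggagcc
Asns (chr6:7693210-7693459, minus strand): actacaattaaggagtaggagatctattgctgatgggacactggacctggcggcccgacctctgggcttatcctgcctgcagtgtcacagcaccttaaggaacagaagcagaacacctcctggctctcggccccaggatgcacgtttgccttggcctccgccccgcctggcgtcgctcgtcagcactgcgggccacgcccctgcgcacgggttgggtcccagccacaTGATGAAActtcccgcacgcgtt
Chac1 (chr2:119350992-119351241, plus strand): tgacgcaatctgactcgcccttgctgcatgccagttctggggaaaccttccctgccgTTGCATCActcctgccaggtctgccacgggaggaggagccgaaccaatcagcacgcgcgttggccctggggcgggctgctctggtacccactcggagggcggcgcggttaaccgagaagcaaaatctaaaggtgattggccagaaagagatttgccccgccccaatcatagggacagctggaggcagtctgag
In the Chac1 window the core reads on the opposite strand, so that its capitals show the reverse complement.

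Levels of different genes can be compared only per length, and the deposited estimated counts behave as values already rescaled by gene length, so that dividing them by exon length may correct for it a second time. The order of the 10 genes is therefore given both in CPM and in CPM per kilobase of exon. Gdf15 was highest on both scales in EM (224 ± 41.6 CPM, 121 ± 22.4 CPM per kb), in EV (192 ± 19.5 CPM, 104 ± 10.5 CPM per kb) and in CM (318 ± 101 CPM, 172 ± 54.5 CPM per kb; SD, n = 4). In CV the order of Gdf15 and Atf4 turned with the scale, at 92.1 ± 47.6 and 101 ± 7.09 CPM but 49.7 ± 25.7 and 42.9 ± 3.01 CPM per kb, and they differed by less than the spread of Gdf15 on both. Atf4, Atf3 and Ddit3 were the other members of the upper 4 in every group on both scales, with Ddit3 the lowest of them. Asns, which makes asparagine, was last on both scales in CM (0.554 ± 0.874 CPM) and CV (0.664 ± 0.596 CPM). In EM and EV the order of the lowest genes turned with the scale, Fgf21 being last in CPM (2.23 ± 1.68 in EM and 2.02 ± 0.383 in EV), but Sesn2 in EM (1.46 ± 0.202) and Asns in EV (1.42 ± 0.184) in CPM per kb. The neighbours Asns and Nupr1 in EV (3.87 ± 0.504 and 3.66 ± 0.478 CPM) and Atf4 and Atf3 in CM (120 ± 12.7 and 114 ± 94.9 CPM) differed by less than their spread.

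EE alone raised the hormone gene Gdf15 (2.09-fold higher in EV), the amino acid gene Asns (5.7-fold) and the stress gene Nupr1 (2.26-fold). The other 7 genes did not pass the test, the 3 transcription factors among them. The 3 calls, all upward, compare with 50.4% of all genes called in EV vs CV in either direction and 25.5% called upward. Groups did not overlap, with EV higher, for 5 of the 10 genes and for 24.6% of all genes. The median log2 fold change was 0.71 over the 10 genes and 0 over all genes tested.

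Gdf15, the stress cytokine, stood at 208, 165, 193 and 204 CPM in EV, against 56.9, 53.2, 103 and 155 CPM in CV (replicates 1 to 4). Every EV library was above every CV library, the nearest being EV replicate 2 and CV replicate 4, and the CV libraries varied far more than the EV ones. The log2 fold change was 1.06 ± 0.3 (SE), with adjusted p = 0.00901 by the quasi-likelihood test of edgeR, Benjamini-Hochberg adjusted over all genes. It remained called without any 1 of the 16 libraries and under all 8 other settings.

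Fgf21, the fasting and stress hormone of the liver, was close to the detection limit. Its CPM values were 2.6, 1.85, 1.81 and 1.84 in EV, against 1.49, 0, 1.31 and 0.707 in CV, where replicate 2 had no counts (a floor of 3 counts is 0.229 CPM there). The groups did not overlap, but the difference did not pass the test (log2 fold change 1.2 ± 0.8, adjusted p = 0.229).

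**Figure D1:**
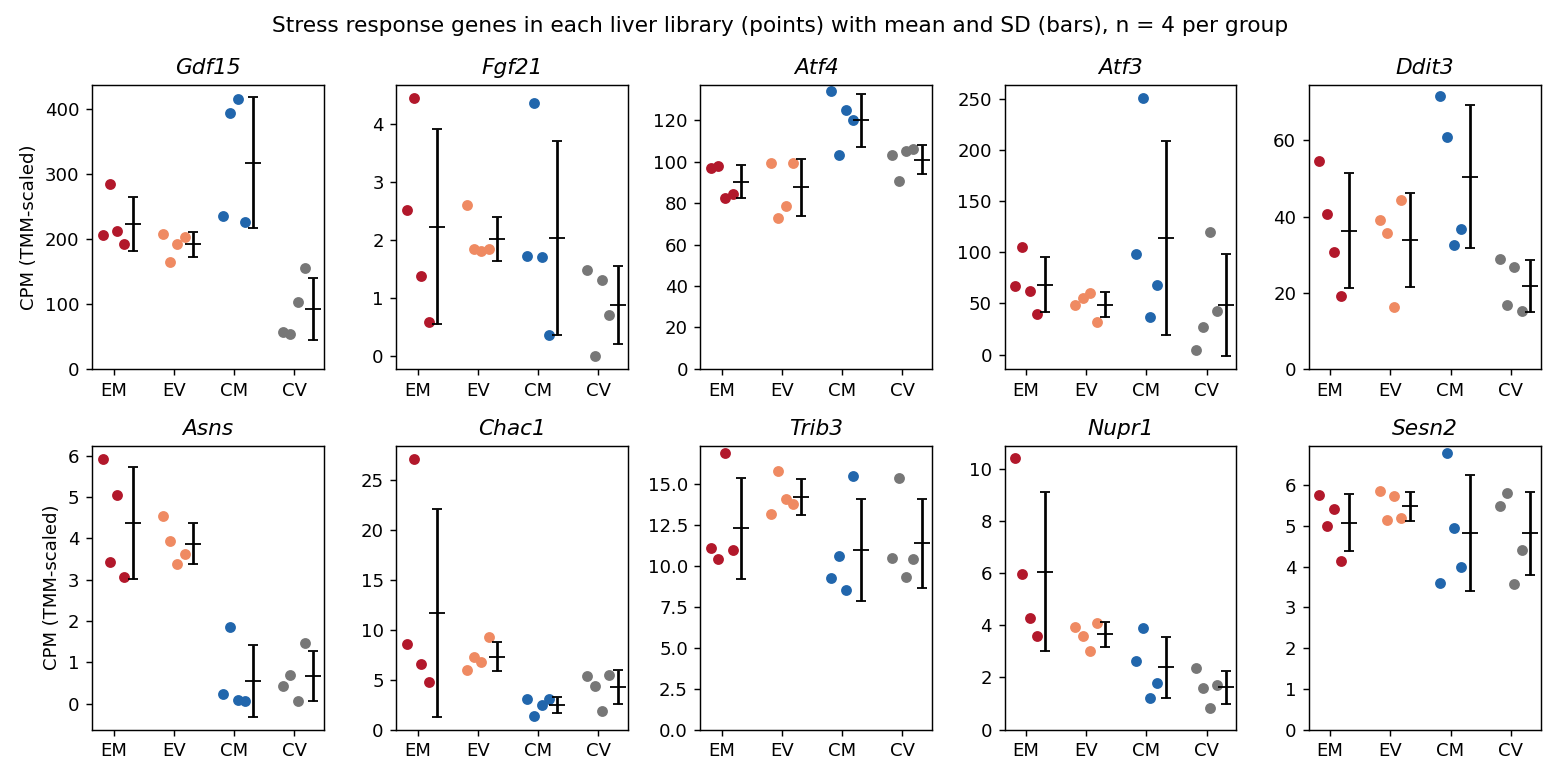
Level of each of the 10 stress response genes in CPM (TMM-scaled, linear axis with its own range per gene) in the EM, EV, CM and CV libraries; points are single libraries and bars the mean and SD of 4. Asns sits near 0 in CM and CV and between 3.06 and 5.93 CPM in EM and EV, while Gdf15 is lowest in CV, and 1 library stands far above its group for Chac1 in EM (27.1 CPM) and for Atf3 in CM (251 CPM).

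Asns, the asparagine synthetase gene with the promoter core on its own strand, had 4.55, 3.94, 3.38 and 3.62 CPM in EV, against 0.427, 0.688, 0.0687 and 1.47 CPM in CV. Every EV library lay above every CV library. The summed estimated counts behind these values were 304 in EV and 41 in CV, so the fold change is imprecise (2.51 ± 0.8, adjusted p = 0.0169). The call was kept without any 1 library, its highest adjusted p being 0.0491 without CV replicate 1.

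Nupr1, a chromatin-associated stress protein, had 3.94, 3.6, 3.02 and 4.1 CPM in EV, against 2.35, 1.6, 0.825 and 1.71 CPM in CV. The groups did not overlap (1.17 ± 0.39, adjusted p = 0.021). Without CV replicate 3, the lowest library, the difference no longer passed the test (0.96, adjusted p = 0.0616). Chac1, which degrades glutathione, had 5.94, 7.25, 6.76 and 9.3 CPM in EV, against 5.34, 4.35, 1.86 and 5.48 CPM in CV. All EV libraries were above all CV libraries by a small margin, and the difference did not pass the test (0.78 ± 0.48, adjusted p = 0.195).

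The remaining 5 genes had overlapping groups in EV vs CV. Atf4 averaged 87.6 ± 13.8 CPM in EV and 101 ± 7.09 CPM in CV (SD, n = 4; -0.21 ± 0.11, adjusted p = 0.139), and its sign depended on the scaling, since library totals gave 0.28 with adjusted p = 0.0473. Atf3, an early stress-induced repressor, had 48.2, 55, 60 and 31.5 CPM in EV, against 4.7, 27.4, 120 and 42.6 CPM in CV, a 25.6-fold range within CV alone. Both Atf3 means were 48.7 CPM. Ddit3 averaged 33.8 ± 12.3 CPM in EV and 21.8 ± 6.9 CPM in CV (0.63 ± 0.37, adjusted p = 0.176). Trib3, a pseudokinase that restrains ATF4 and CHOP, averaged 14.2 ± 1.1 CPM in EV and 11.4 ± 2.72 CPM in CV (0.32 ± 0.21, adjusted p = 0.216). Sesn2, a leucine sensor upstream of mTORC1, averaged 5.48 ± 0.358 CPM in EV and 4.82 ± 1.02 CPM in CV (0.19 ± 0.2, adjusted p = 0.46). With library totals 8 of the 10 genes were called, all upward, with Ddit3 at 1.13, Trib3 at 0.81, Chac1 at 1.25 and Sesn2 at 0.67, against the median shift of 0.48 given above. Of all 12918 genes tested, 7048 were called upward and 1329 downward under the same setting.

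Gdf15 was 3.45-fold higher in mice given MI763F alone than in vehicle mice, and none of the other 9 genes passed the test. Ligand and gavage cannot be told apart in this comparison. The Gdf15 call was kept in 3 of the 16 fits with 1 library left out. That 1 call stands beside 0.0929% of all genes called in CM vs CV, 12 genes, all upward. At an unadjusted p under 0.05 there were 3 of the 10 (Gdf15, Ddit3 and Atf4), beside 10.5% of all genes. The CM and CV ranges did not overlap for Gdf15 and Ddit3, both higher in CM, as for 2.24% of all genes. The median log2 fold change of the 10 was 0.41, against 0 over all genes.

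Gdf15 stood at 235, 394, 416 and 227 CPM in CM, against 56.9, 53.2, 103 and 155 CPM in CV. All 4 CM libraries were above all 4 CV libraries, with CM replicates 2 and 3 well above replicates 1 and 4. The log2 fold change was 1.79 ± 0.31 with a 95% interval of 1.13 to 2.45 and adjusted p = 0.0469 by edgeR's quasi-likelihood test. The size of the difference varied little, between 1.6 and 2.16 when any 1 library was left out, but the call was kept in 3 of those 16 fits. It was lost without CM replicate 2 (adjusted p = 0.137) or 3 (0.162), without CV replicate 1 (0.139), 2 (0.116) or 3 (0.0762), and without any EV library (0.066 to 0.0726) or EM library (0.0598 to 0.0801). With the CM and CV libraries fitted on their own, adjusted p was 0.425, with library totals it was 0.0722, and DESeq2 gave 7.85e-07.

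**Figure D2:**
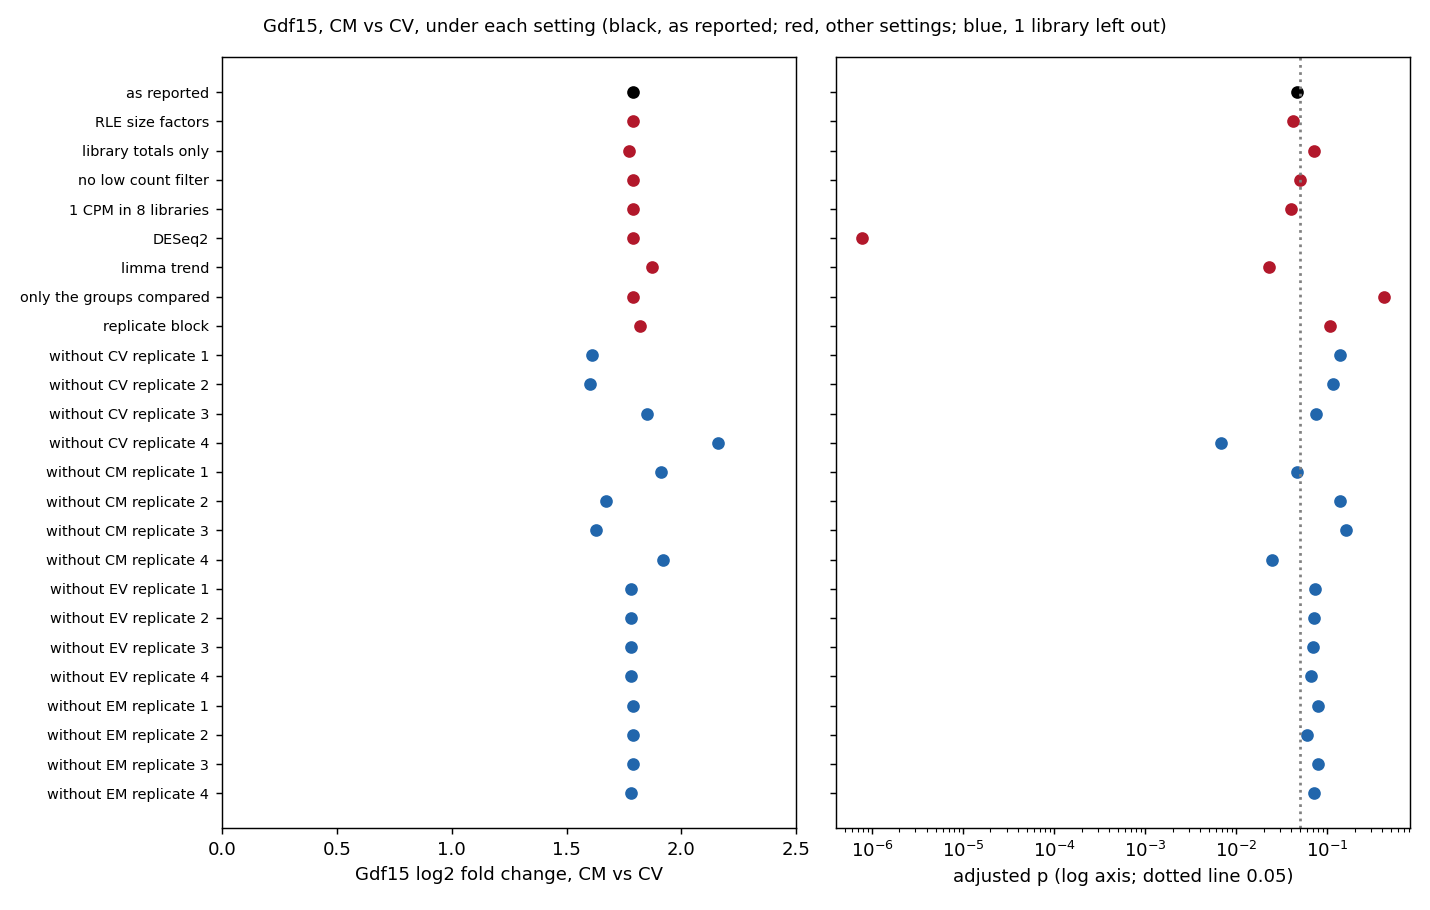
Gdf15 in CM vs CV as reported (black), under 8 other settings (red) and with each library left out (blue); the left axis is the log2 fold change and the right one the adjusted p on a log scale, with a dotted line at 0.05. The fold changes lie between 1.6 and 2.16, while the adjusted p values fall on both sides of the line, from 7.85e-07 to 0.425.

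Ddit3, the CHOP gene, had 71.7, 61, 32.6 and 36.8 CPM in CM, against 28.8, 16.7, 26.7 and 15.1 CPM in CV. The groups did not overlap, yet the difference did not pass the adjusted test (1.21 ± 0.38, unadjusted p = 0.0063, adjusted p = 0.266), while DESeq2 gave an adjusted p of 0.039. Its exons overlap those of Mars and Gm4189 on the other strand, and the use of strand in counting is not given in the sources used here, so reads of these genes may be shared. Atf4 averaged 120 ± 12.7 CPM in CM and 101 ± 7.09 CPM in CV (0.25 ± 0.11, adjusted p = 0.446).

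Atf3 had 98.5, 251, 37.2 and 67.7 CPM in CM, against 4.7, 27.4, 120 and 42.6 CPM in CV. The ranges overlapped widely, with CM replicate 2 the highest and CV replicate 1 the lowest (1.22 ± 0.74, adjusted p = 0.609). Fgf21 averaged 2.04 ± 1.67 CPM in CM and 0.877 ± 0.674 CPM in CV (1.2 ± 0.8, adjusted p = 0.651). Asns stayed near the detection limit, with 34 estimated counts summed over CM and 41 over CV. Chac1 was 2.49 ± 0.81 CPM in CM and 4.26 ± 1.68 CPM in CV, the opposite sign to Gdf15, and did not pass the test (-0.78 ± 0.5, adjusted p = 0.637). The log2 fold changes of Trib3, Sesn2 and Nupr1 in CM vs CV were -0.05 ± 0.21, 0.01 ± 0.2 and 0.56 ± 0.4, and none passed.

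In each group the library with the most Gdf15 also had the most mRNA of immediate-early genes, which cells transcribe within minutes of a stimulus. The sum of 12 such genes was 668, 1190, 1280 and 608 CPM in CM, against 410, 309, 394 and 440 CPM in CV. All 4 CM libraries were above all 4 CV libraries, and CM replicates 2 and 3 were highest for this sum as for Gdf15. The sum was 406, 500, 448 and 287 CPM in EM and 431, 233, 358 and 396 CPM in EV. Within EM and EV, as within CM, the libraries ranked in the same order for the sum and for Gdf15. In CV replicate 4 was highest and replicate 2 lowest for both. Of the 12 genes, Dusp1, a phosphatase that turns off MAP kinases, rose in CM (1.54 ± 0.26, adjusted p = 0.0454), a call kept in 3 of 16 fits with 1 library left out. The list median was 1.1 in CM vs CV. Zfp36, which destabilises inflammatory mRNAs, differed by 1.43 ± 0.29 (adjusted p = 0.109) and Fos, named after its values were seen, by 2.75 ± 0.75 (adjusted p = 0.211), and neither passed. The part of these genes' variation in the Gdf15 difference was not tested. No marker of any cell type list passed the test in CM vs CV.

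**Figure D3:**
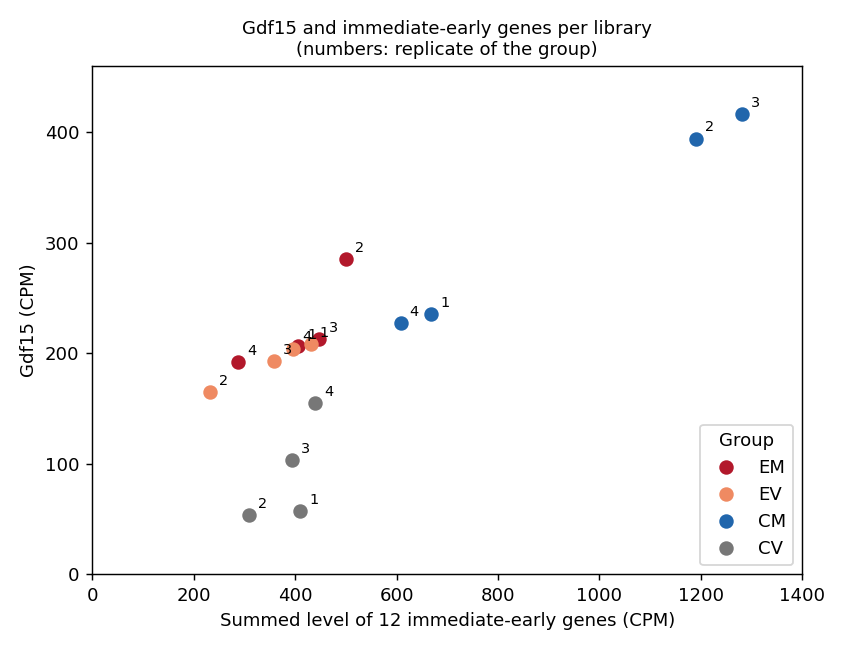
Gdf15 (vertical, CPM) against the summed level of 12 immediate-early genes (horizontal, CPM) in each library, coloured by group and numbered by replicate. CM replicates 2 and 3 lie apart at the upper right (394 and 416 CPM of Gdf15), and every EM and EV library lies above every CV library for Gdf15, with sums of 233 to 500 CPM in EM and EV and 309 to 440 CPM in CV. Within EM, within EV and within CM the libraries rank in the same order on both axes.

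None of the 10 genes passed the test when MI763F was given on top of EE. The edgeR test called 0 of 10 in EM vs EV, and 0 of 10 at an unadjusted p under 0.05, beside 1.69% and 12.7% of all genes. DESeq2 also called 0 of 10, beside 559 of all genes. The ranges of EM and EV overlapped for every one of the 10 genes, while EM lay wholly higher for 6.56% and wholly lower for 3.98% of all genes. The median log2 fold change was 0.15, against 0 over all genes.

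Gdf15 had 206, 285, 213 and 192 CPM in EM, against 208, 165, 193 and 204 CPM in EV. The groups overlapped, with EM replicate 2 the highest and EV replicate 2 the lowest. The log2 fold change was 0.22 ± 0.3 (adjusted p = 0.847), with a 95% interval of -0.42 to 0.86 that does not reach the 1.79 seen without EE. The difference between the ligand's effect with EE and without it was -1.57 ± 0.43 for Gdf15 on the log2 scale, with an unadjusted p of 0.00235. After adjustment it did not pass edgeR's test (adjusted p = 0.121), nor did any of the other 9 genes, beside 0.132% of all genes called for this difference. DESeq2 called it for Gdf15 (adjusted p = 0.00909).

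Nupr1 had 10.4, 5.98, 4.26 and 3.6 CPM in EM, against 3.94, 3.6, 3.02 and 4.1 CPM in EV. The upper EM libraries lay above all EV libraries, and the lowest did not (0.72 ± 0.37, adjusted p = 0.454). Chac1 had 8.54, 27.1, 6.53 and 4.78 CPM in EM, against 5.94, 7.25, 6.76 and 9.3 CPM in EV. EM replicate 2 alone lay above the EV range, and without it the log2 fold change was -0.14 instead of 0.68. Asns averaged 4.37 ± 1.36 CPM in EM and 3.87 ± 0.504 CPM in EV, a log2 fold change of 0.17 ± 0.72 with a 95% interval of -1.36 to 1.71. Fgf21 averaged 2.23 ± 1.68 CPM in EM and 2.02 ± 0.383 CPM in EV. Atf3, Ddit3, Atf4, Trib3 and Sesn2 differed by 0.49, 0.1, 0.04, -0.2 and -0.11 on the log2 scale, and none passed.

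Mice given EE and MI763F together had more Gdf15, Asns, Chac1 and Nupr1 mRNA than vehicle mice. These were 4 upward calls of 10 in EM vs CV, beside 40.6% of all genes called and 20.7% called upward, and EM lay wholly above CV for 3 of the 10 genes, as for 19.4% of all genes. Gdf15 was 2.43-fold higher (1.28 ± 0.3, adjusted p = 0.00366). Asns was 6.42-fold higher (2.68 ± 0.8, adjusted p = 0.0149), with 338 estimated counts summed over EM and 41 over CV. Nupr1 was 3.72-fold higher (1.89 ± 0.39, adjusted p = 0.00136). The Chac1 call (1.46 ± 0.48, adjusted p = 0.0256) was lost with only the EM and CV libraries fitted (1.44, adjusted p = 0.0855) and without EM replicate 2 (0.63, adjusted p = 0.169), CV replicate 2 (0.0518) or CV replicate 3 (0.0691).

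Between the groups given the ligand, EM mice had more Asns, Chac1 and Nupr1 mRNA and less Atf4 mRNA than CM mice, 3 calls up and 1 down of 10 beside 19.4% of all genes called up, 18.6% called down and 38.1% in either direction. EM lay wholly above CM for Asns and Chac1 (18.6% of all genes) and wholly below it for Atf4 (16.8%). Asns had 5.93, 3.42, 5.06 and 3.06 CPM in EM, against 0.225, 1.86, 0.0772 and 0.0526 CPM in CM. Every EM library was above every CM library (2.95 ± 0.82, adjusted p = 0.0102). Chac1 in CM, at 3.08, 1.35, 2.47 and 3.05 CPM, also lay below every EM library (2.23 ± 0.5, adjusted p = 0.0027). Nupr1 was 2.52-fold higher in EM (1.33 ± 0.38, adjusted p = 0.0123) in overlapping groups, and the call was lost without EM replicate 1 (adjusted p = 0.0611).

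Atf4 had 96.8, 97.9, 82.4 and 84.5 CPM in EM, against 134, 103, 125 and 120 CPM in CM. All EM libraries lay below all CM libraries (-0.41 ± 0.11, adjusted p = 0.00875). With library totals the fold change was -0.04 (adjusted p = 0.815), so the Atf4 difference holds relative to the other genes of each library and not to its total. Gdf15 in EM vs CM did not pass the test (-0.51 ± 0.3, adjusted p = 0.203).

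**Figure D4:**
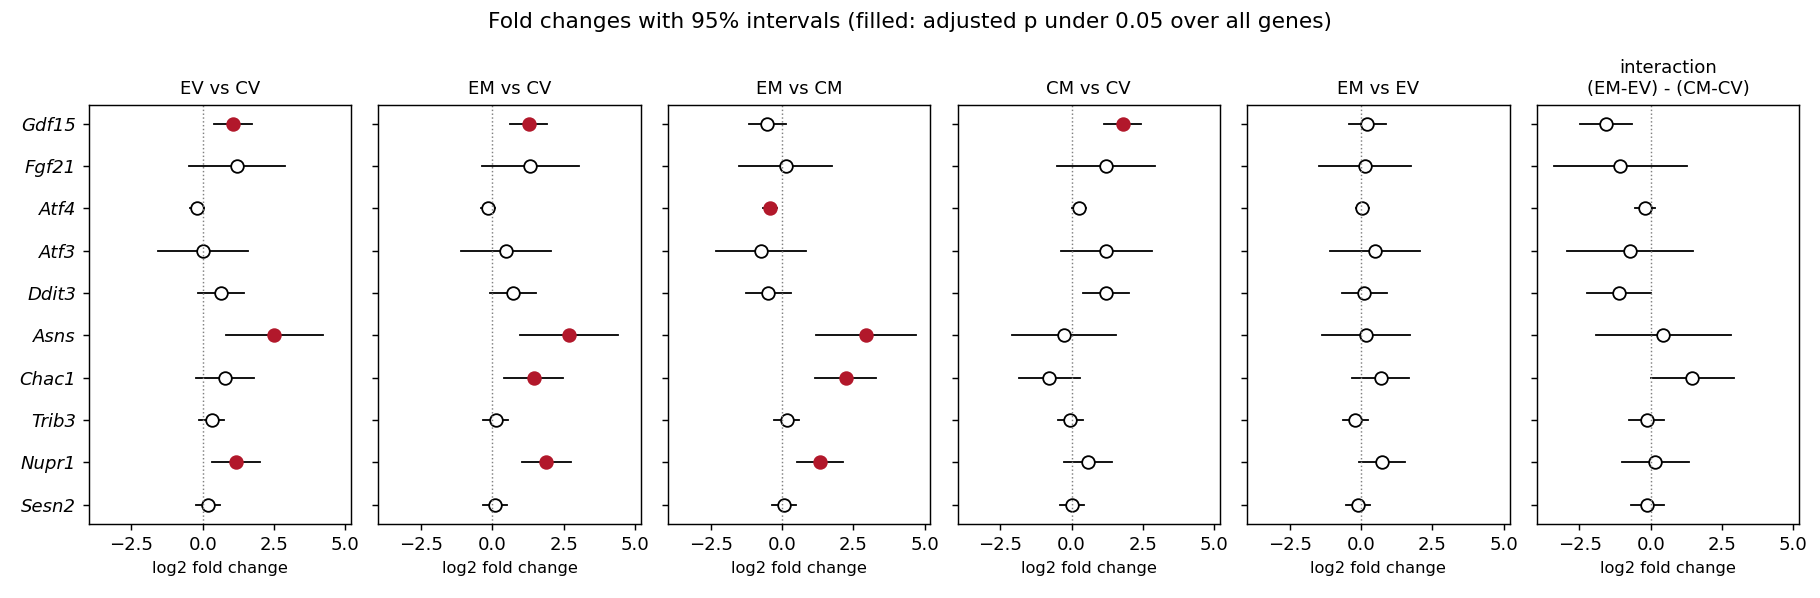
Log2 fold change of the 10 genes with 95% intervals in 5 comparisons and, at the right, for the difference of the ligand's effect with and without EE; filled points passed an adjusted p of 0.05 over all genes. Asns, Chac1 and Nupr1 are filled in both comparisons of EM with a group without EE, Gdf15 in all 3 comparisons with CV, and none in EM vs EV.

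The wider pathway was described by 10 lists with 100 genes tested, of which 40 were called up and 16 down in EV vs CV, against 25.5% and 24.9% of all genes. The chaperones of the endoplasmic reticulum had the most calls in one direction, 12 of 14 upward and none downward, with a median of 0.88. Canx and Dnajc3 were nearest to the threshold (adjusted p = 0.0489 and 0.0475), and with RLE size factors 10 of 14 were called. Hspa5, the chaperone BiP that senses misfolded protein, averaged 1680 ± 212 CPM in EV and 740 ± 219 CPM in CV (1.19 ± 0.22, adjusted p = 0.000352). Hsp90b1 rose by 1.01, Dnajb9 by 1.12 and Calr by 0.68 on the log2 scale.

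Enzymes of amino acid supply moved in both directions. Psat1, a step of serine synthesis, had 6.03, 5.15, 4.95 and 6.3 CPM in EV, against 0.427, 1.15, 0 and 0.648 CPM in CV. All EV libraries were far above all CV libraries (3.33 ± 0.61, adjusted p = 0.000346). Aldh18a1, for proline synthesis, rose by 2.33 and the folate enzyme Mthfd2 by 2.17, while Shmt2, a mitochondrial one-carbon enzyme, changed by -1.27 and Cth, which makes cysteine, by -1.79, and the list of 7 had 3 calls up and 2 down. Of 6 amino acid transporters 2 rose, Slc1a5 (1.46 ± 0.26) for glutamine and Slc3a2 (0.69 ± 0.12), the partner chain of several carriers, and Slc38a2 fell (-0.54), a call lost with library totals. Of 13 genes for cytosolic tRNA synthetases and the tRNA exporter, 5 rose, among them Wars (0.93), Gars (0.79), Lars (0.74) and Nars (0.73), and Aars fell (-0.4).

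Further targets of ATF4 and CHOP had 5 calls up and 2 down of 13, and a median of -0.01. Ddit4, an inhibitor of mTORC1, had 129, 139, 75.5 and 70.2 CPM in EV, against 20.1, 23.7, 11.3 and 17.3 CPM in CV. The groups were far apart (2.51 ± 0.36, adjusted p = 5.03e-05). Jdp2 rose by 2.08, the oxidase Ero1l by 0.63 and the autophagy genes Sqstm1 and Map1lc3b by 0.38 and 0.35. Cebpb changed by -0.53, and the growth arrest gene Gadd45a averaged 8.71 ± 5.19 CPM in EV and 38.5 ± 10.5 CPM in CV (-2.15 ± 0.46, adjusted p = 0.00128). Of 7 genes for the eIF2α kinases, eIF2α itself and the phosphatase subunits that reverse its phosphorylation, 2 rose, Eif2ak4 (0.46, adjusted p = 0.0294) and Eif2ak2 (0.35, adjusted p = 0.0454). The Eif2ak2 call was kept in 5 and the Eif2ak4 call in 14 of the 16 fits with 1 library left out.

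Of 5 genes for FGF21 receptors, 3 fell with EE and none rose. Klb, which encodes β-Klotho, averaged 5.19 ± 0.467 CPM in EV and 14.3 ± 1.79 CPM in CV (-1.46 ± 0.18, adjusted p = 9.83e-06). Fgfr4 and Fgfr2 changed by -1.13 ± 0.18 and -1.18 ± 0.17, and Fgfr1 and Fgfr3 did not pass the test. With library totals this list again had 3 calls down and none up. Gfral, the GDF15 receptor of the hindbrain, was not analysed here.

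Targets of p53 and of PPARA were listed as other known inputs to Gdf15 and Fgf21. Of 10 p53 targets, 5 rose and 1 fell in EV vs CV. Cdkn1a, the cell cycle inhibitor p21, had 119, 94.5, 104 and 113 CPM in EV, against 15.1, 8.17, 13.9 and 8.08 CPM in CV. The EV libraries were tightly grouped and all far above CV (3.25 ± 0.6, adjusted p = 0.000492). The other 4 rises were those of Zmat3 (0.98), Bax (0.64), Aen (0.63) and Mdm2 (0.39), and Trp53inp1 changed by -0.71. In CM, Cdkn1a ranged from 10.6 CPM in replicate 4 to 113 CPM in replicate 2 and did not pass against CV (2.12 ± 0.58, adjusted p = 0.211). Of 13 PPARA targets, 4 rose and 6 fell, with Pdk4 at 2.95, Ehhadh at 2.34, Plin2 at 1.73 and Angptl4 at 0.8 against Fabp1 at -2.05. Of the 12 immediate-early genes, Myc (1.24 ± 0.27) and Ier3 (0.86 ± 0.33) rose in EV, Ier3 in 6 of the 16 fits with 1 library left out. With library totals 65 of the 100 genes were up and 8 down in EV vs CV, beside 7048 up and 1329 down of all 12918 genes. No fall then remained called among the transporters, the synthetases or the p53 targets.

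**Figure D5:**
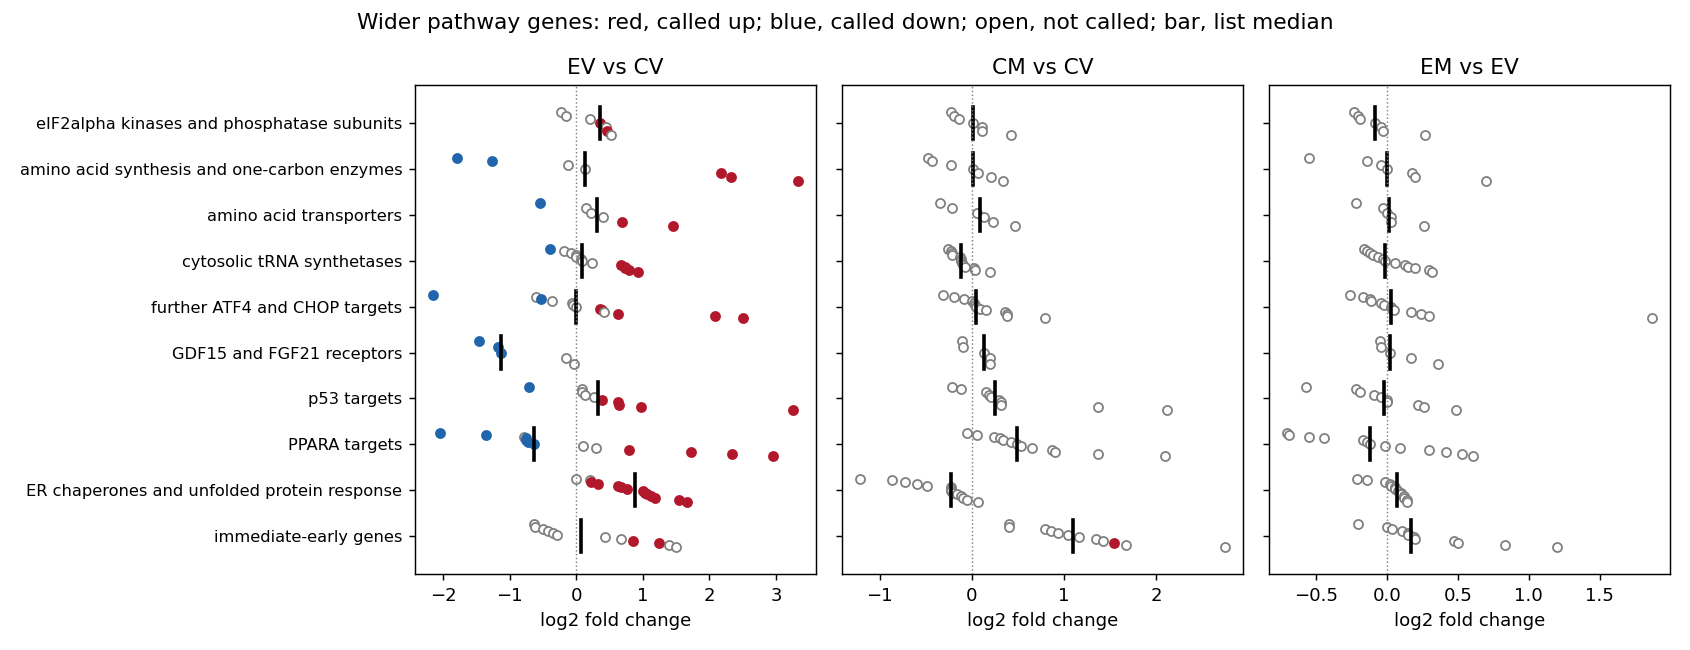
Log2 fold change of each tested gene of the 10 wider lists in 3 comparisons, EV vs CV at the left, CM vs CV in the middle and EM vs EV at the right (each panel with its own range); red was called up, blue called down, open not called, and the bar is the list median. In EV vs CV the endoplasmic reticulum chaperones lie almost wholly on the upper side (12 of 14 called up), in CM vs CV 1 gene, Dusp1, is called, and in EM vs EV none.

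Of the same 100 genes, 1 was called in CM vs CV (Dusp1) and none in EM vs EV by edgeR. These counts stand beside 12 and 218 of all 12918 genes. DESeq2 called 9 and 2 of the 100, beside 221 and 559 of all genes. Gadd45a was nearest to the threshold in EM vs EV, with 29.7, 53.5, 32.7 and 10.6 CPM in EM, against 3.94, 8.66, 15.9 and 6.3 CPM in EV. The ranges overlapped in 1 EM library, replicate 4 (1.87 ± 0.45, adjusted p = 0.0555). The medians of the chaperones were 0.07 in EM vs EV and -0.22 in CM vs CV.

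In EM vs CV, 35 of the 100 genes were called up and 10 down, beside 2668 (20.7%) up and 2583 down of all 12918 genes. Of the 14 chaperones, 12 were up again. In EM vs CM, 33 of the 100 genes were up and 23 down, beside 19.4% and 18.6% of all genes. There 13 of 14 chaperones were up, and Hspa5 averaged 1750 ± 413 CPM in EM and 492 ± 115 CPM in CM. The immediate-early genes had 7 calls down and 1 up of 12 in that comparison, with Zfp36 at -1.91 ± 0.29 and Junb at -1.08 ± 0.19. With library totals that list had 3 down and 2 up, beside 935 down and 5889 up of all 12918 genes.

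The genes most like Gdf15 over the 16 libraries were those with the lowest root mean square difference in log2 CPM, after the CV mean of each gene was subtracted, among 11198 genes whose log2 CPM averaged 1 or more. Sik1, a salt-inducible kinase, was nearest at 0.43 log2 units, followed by Lnx2 (0.587), Prom1 (0.598), St5 (0.608) and Rnf125 (0.627), whereas Gdf15 itself lay 1.37 from its own CV mean. Sik1 averaged 27.5 CPM in EM, 28.8 in EV, 30.6 in CM and 12.7 in CV. For Fgf21 the nearest genes were Iglv1 (0.795) and Ighm (0.851), both immunoglobulin genes, and Fgf21 lay 1.66 from its own CV mean. All of these distances share libraries, depth and the mean of the same 4 CV libraries, and are given as a description.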

How the data were processed

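Per the labels' protocols, polyadenylated liver RNA was sequenced after NEBNext Ultra library preparation. GRCm39, STAR and Salmon are named in the submitters' processing notes; the sources used here give no roles, versions, annotation or strand setting. The authors deposited 1 table of estimated counts for 13006 genes in 16 libraries, all whole numbers. These estimated counts, as deposited, behave as values rescaled by gene length, because among 731 genes at 0 somewhere the median smallest nonzero value was 101.5 under 150 bp of exon and 1 over 4000 bp (82.9% had a length). They were tested as counts, so floors of 3 counts are approximate and cover counting error only, while the intervals of fold changes include the spread between libraries. Symbols came from GENCODE M21 for 12692 identifiers.

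Groups and replicate numbers were read from sample titles. At most 3.24% of genes held equal values in any pair of libraries. Genes were filtered with filterByExpr (12918 left), scaled with TMM factors and fitted in edgeR 4.0.16 under R 4.3.3 (glmQLFit, robust, 1 coefficient per group, 12 residual degrees of freedom, biological coefficient of variation 0.284). Quasi-likelihood tests of 6 contrasts were adjusted by Benjamini-Hochberg over all genes, with a threshold of 0.05. SE is the fold change over the root of the test statistic.

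The 10 genes and the wider lists were chosen with earlier results of these data known. Named genes were all 10, the 4 lowest p of each wider list in EV vs CV and the 2 lowest in CM vs CV and in EM vs EV. The others, such as further members of counts of 5 or fewer, were named after their values were seen. Alternatives were RLE factors, library totals, no filter, 1 CPM in 8 libraries, DESeq2 1.42.0, limma 3.58.1 (trend, prior count 2), a fit of only the compared groups, a block for the replicate number, leaving out each library and, chosen after seeing the data, the sum of both table entries for Ddit3. The fitting was tested on simulated counts. Promoters are RefSeq's. Figures used matplotlib 3.10.9.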

Additional observations from a re-analysis of the deposited data

Results flagged for a closer look

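Within the groups of 4, 4 of 40 gene and group pairs had 1 library apart from the other 3 by more than the 95% critical value of Dixon's test, where chance gives about 1 in 20. Fgf21 stood at 2.6 CPM in EV replicate 1, against 1.81 to 1.85 CPM in the other EV libraries. Trib3 stood at 16.9 CPM in EM replicate 3, against 10.4 to 11.1 CPM in the other EM libraries. Asns stood at 1.86 CPM in CM replicate 2, against 0.0526 to 0.225 CPM in the other CM libraries, and without that library its log2 fold change in EM vs CM was 5.19 in place of 2.95. Chac1 stood at 27.1 CPM in EM replicate 2, against 4.78 to 8.54 CPM in the other EM libraries, and the Chac1 call in EM vs CV was lost without it.

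The table holds a second Ensembl entry for Ddit3, which overlaps the first on the same strand in GENCODE M21. It had 412 estimated counts in EM replicate 1 and 0 in the other 15 libraries, and did not pass the filter. Added to the first entry, it gave a Ddit3 log2 fold change of 0.3 in EM vs EV in place of 0.1, and no Ddit3 call changed.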

How the results depend on the processing

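Leaving out 1 library gave 2 to 3 of the 10 genes called in EV vs CV, 0 to 1 in CM vs CV, 0 in EM vs EV, 3 to 4 in EM vs CV and in EM vs CM, and 0 for the difference of the ligand's effects. It gave 49 to 57, 0 to 2, 0 to 1, 40 to 51, 50 to 60 and 0 to 1 of the 100 wider genes in the same order. Over all genes the same fits called 5868 to 6583 in EV vs CV. They called 4543 to 5387 in EM vs CV and 4195 to 5033 in EM vs CM. With library totals 8 of the 10 were called in EV vs CV and 0 in CM vs CV, and of the wider genes 72 in EM vs CV and 0 in CM vs CV. Of all 12918 genes, that setting called 8377 in EV vs CV, 8 in CM vs CV and 6979 in EM vs CV. Atf4 then gave 0.28 in EV vs CV, -0.06 in EM vs EV and 0.21 in EM vs CV, Atf3 0.49 in EV vs CV, and Ddit3 -0.01 in EM vs EV. DESeq2 called 2 of the 10 (Gdf15 and Ddit3) and 9 wider genes in CM vs CV, 2 wider genes in EM vs EV, and 1 (Gdf15) and 6 for the difference of effects. With only the groups compared, CM vs CV had 0 and 0, and EM vs EV 2 wider genes, against 1 with the filter of 1 CPM. The replicate numbers do not pair the samples, since 0 of 24 same-number correlations exceeded 0.1 (-0.0524 to 0.0957); the replicate block called 0 and 0 in CM vs CV, with Gdf15 at 1.82 (adjusted p = 0.108). Signs turned in genes not called as reported. Atf3 in EV vs CV gave 0 with the 1 CPM filter, 0.72 with limma and 0.11 with the replicate block. Sesn2 in CM vs CV gave -0.01 with limma and 0 with the block, and Fgf21 in EM vs EV -0.17 and -0.16. With 1 library left out, the ranges that crossed 0 were, in EV vs CV, Atf3 -0.38 to 0.96. In CM vs CV they were Trib3 -0.27 to 0.13, Asns -2.5 to 0.51 and Sesn2 -0.2 to 0.12. In EM vs EV they were Fgf21 -0.44 to 0.44, Atf4 -0.04 to 0.11, Ddit3 -0.17 to 0.3, Asns -0.01 to 0.31 and Chac1 -0.14 to 0.93. In EM vs CV they were Trib3 -0.08 to 0.29 and Sesn2 -0.04 to 0.18. In EM vs CM they were Fgf21 -0.45 to 0.83, Atf3 -1.02 to 0.01, Trib3 -0.03 to 0.38 and Sesn2 -0.04 to 0.28. For the difference of effects they were Atf3 -1.69 to 0.02, Trib3 -0.34 to 0.06, Asns -0.34 to 2.68, Sesn2 -0.23 to 0.1 and Nupr1 -0.23 to 0.51. The cause was not tested in any of these. Over all genes, CM vs CV had 221 calls with DESeq2, 2 with only the groups compared, 6 with the block and 4 (without CV replicate 1) to 39 (without CM replicate 4), against 12. EM vs EV had 559 with DESeq2, 127 with library totals and 36 (without EV replicate 2) to 445 (without EM replicate 1), against 218. The difference of effects had 450 with DESeq2, 79 with the block, 30 with limma, 26 with library totals and 10 (without EV replicate 1) to 208 (without EM replicate 1), against 17. The share of calls that were upward was 84.1% with library totals against 50.5% as reported in EV vs CV, 59.1% against 89.4% in EM vs EV, 85.7% against 50.8% in EM vs CV, 86.3% against 51% in EM vs CM and 46.2% against 76.5% for the difference of effects. Asns, Fgf21, Chac1, Nupr1 and Sesn2 lay at a few CPM or less, where counts limit precision.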
